A study of Mus musculus with 9 samples.

Results

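The core genes of the Hedgehog pathway were followed through keratinocytes and regulatory T cells of the mouse. They were chosen by symbol, 9 of the 36442 genes of the epidermal table and 9 of the 24016 gene symbols of the Treg table. The 9 were Shh, the ligand, Hhip, a decoy that binds the ligand, Ptch1, the receptor that holds the pathway off, Boc, a co-receptor, Smo, the transducer that Ptch1 restrains, Sufu, an inhibitor that holds Gli proteins in the cytoplasm, and the transcription factors Gli1, Gli2 and Gli3. RNA was sequenced from mouse cells sorted by flow cytometry. Epidermal keratinocytes of adult skin gave 2 WT and 2 Mi2 libraries. Regulatory T cells (Tregs) of skin-draining lymph nodes gave 2 control (Ctl) libraries, 2 TSLPR WT libraries and 1 TSLPR-negative library, the last 3 being from Mi2 mice. Crlf2 encodes TSLPR, through which cells sense the cytokine TSLP, and Mi-2β is a chromatin remodelling ATPase encoded by Chd4; column headers mark the Mi2 libraries as knock-outs. The headers also call all the Treg libraries skin Tregs, where the labels give skin-draining lymph nodes. They mark the TSLPR-negative library TMDKO, a name left unexplained. The sources used here do not give the allele, the promoter of any Cre, the age of the mice or how TSLPR-negative cells were obtained. Nothing in them says that replicates came from separate mice, so p-values measure the spread between libraries, which may be technical.

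Hedgehog signalling begins when a secreted ligand binds Ptch1 at the primary cilium, which frees Smo. Active Smo releases Gli proteins from Sufu, so that Gli2 and Gli1 switch genes on, while Gli3 is chiefly processed to a repressor when no ligand is present. Gli1, Ptch1 and Hhip are themselves classical targets of the pathway, and in skin Hedgehog signals drive growth of the hair follicle, where they pass between epithelium and dermis.

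Values are normalized reads, that is, whole reads multiplied by 1 factor per library. The epidermal libraries held 5682391 to 8913804 recovered reads and the Treg libraries 21849381 to 32238992. Sorted identities were visible in both tables. Krt5, a basal keratin, was at 117800 to 165634 in epidermis, and Foxp3, which defines Tregs, was at 11159 to 15371 in Tregs. Chd4 was at 1607 and 1942 in the WT and 734 and 1207 in the Mi2 epidermal libraries, lower in both but not absent; whether a deleted exon lies within the counted region was not examined. Crlf2 was at 395, 742, 816 and 715 in the Ctl and TSLPR WT libraries and at 51.5 in the TSLPR-negative one. The first Mi2 epidermal library stood apart in its mitochondrial reads, 29.7% of the total against 12.9% to 15.5% in the other 3. Since the material is bulk RNA, fewer cells of a type and less RNA per cell cannot be told apart.

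In epidermis Gli1 and Gli2 were higher and Boc was lower in the Mi2 libraries, while Smo differed little and no Shh read was found. Changes were tested with limma on log2(normalized reads + 1) over genes whose mean reached 10; called genes had a two-sided p under 0.05 after Benjamini-Hochberg adjustment. Of the 9 genes, 7 passed the filter, of which 2 were called higher, 1 was called lower and 4 were not called. Over all 14461 genes tested, 28.2% were called, 15.1% as higher and 13.1% as lower. The median log2 change was 0.49 over the 7 genes and -0.03 over all genes tested.

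**Figure D1:**
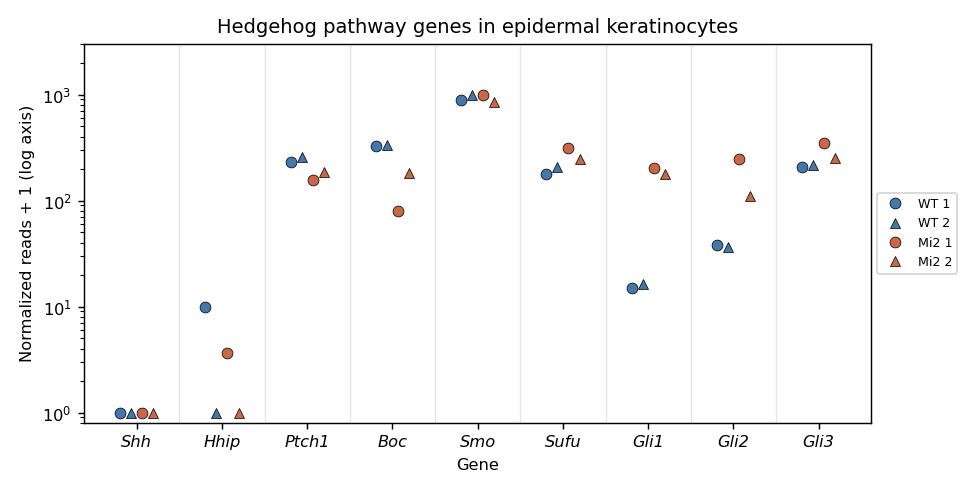
Normalized reads plus 1 (log axis) of the 9 Hedgehog genes in each epidermal library; circles and triangles are replicates 1 and 2, blue is WT and orange is Mi2. For Gli1 the WT libraries lie at 13.9 and 15.2 and the Mi2 libraries at 202 and 178, and for Boc both Mi2 libraries lie below both WT libraries.

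No read of Shh was found in any of the 4 epidermal libraries, which allows up to 2.18 to 4.09 normalized reads per library if 3 reads are taken as the limit of a count of 0. Hhip had 9 and 0 reads in the WT and 2 and 0 reads in the Mi2 libraries, below the filter and not tested. So the ligand and the decoy were at or near the floor in sorted keratinocytes of both groups. Such limits cover counting error only, since PCR copies are not independent molecules.

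Ptch1, the receptor, was at 229 and 255 normalized reads in WT and at 155 and 187 in Mi2 epidermis. Both Mi2 libraries were below both WT libraries, yet the log2 change of -0.50 (SE 0.221, 95% interval -1.03 to 0.02) was not called (limma, adjusted p 0.128). Boc, which helps Ptch1 capture ligand, was at 327 and 336 in WT and at 78.3 and 180 in Mi2 epidermis. The groups did not overlap, and the 2 Mi2 libraries differed from each other more than the WT libraries did. Boc fell by 1.47 on the log2 scale (SE 0.378, limma adjusted p 0.0282), to 0.389 of the WT mean. The call rested on the settings: adjusted p was 0.0725 without an intensity trend, 0.0539 with no filter on low values, and 0.117 and 0.11 without the first or second WT library. Boc's log2 change was -0.88 without the first Mi2 library and -2.07 without the second.

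Smo was at 896 and 995 normalized reads in WT and at 991 and 857 in Mi2 epidermis, so the groups overlapped. Its log2 change was -0.03 with a 95% interval of -0.49 to 0.42 (limma, adjusted p 0.905). Sufu was at 177 and 208 in WT and at 309 and 247 in Mi2 epidermis. The Mi2 libraries were both higher, but the log2 change of 0.52 (95% interval -0.01 to 1.06) was not called (limma, adjusted p 0.125).

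Gli1, the Gli factor whose own transcription is the usual readout of the pathway, was at 13.9 and 15.2 normalized reads in WT and at 202 and 178 in Mi2 epidermis, from 14, 21, 152 and 131 reads. Both Mi2 libraries were far above both WT libraries. The mean rose from 14.6 ± 0.956 (SD, n = 2) to 190.1 ± 16.4 (SD, n = 2), a ratio of 13.0. Gli1's log2 change was 3.62 (SE 0.302, 95% interval 2.90 to 4.33, limma adjusted p 8.8e-04). It was called under all 15 alternative settings run, with log2 changes from 3.32 to 3.71.

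Gli2, the main activator of the family, was at 36.7 and 35.6 in WT and at 248 and 110 in Mi2 epidermis. Again the groups did not overlap, and the first Mi2 library, the one with 29.7% mitochondrial reads, was the higher for Gli2 and the lower for Boc. Gli2 rose by 2.16 on the log2 scale (SE 0.406, limma adjusted p 0.0107), a ratio of means of 4.96. It was called under all 15 alternatives, with log2 changes from 1.58 without the first Mi2 library to 2.75 without the second.

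Gli3, the family's chief repressor, was at 206 and 216 in WT and at 349 and 253 in Mi2 epidermis. Its log2 change of 0.49 (95% interval -0.06 to 1.04) was not called (limma, adjusted p 0.151), though without the second Mi2 library it was 0.72 with an adjusted p of 0.0362.

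**Figure D2:**
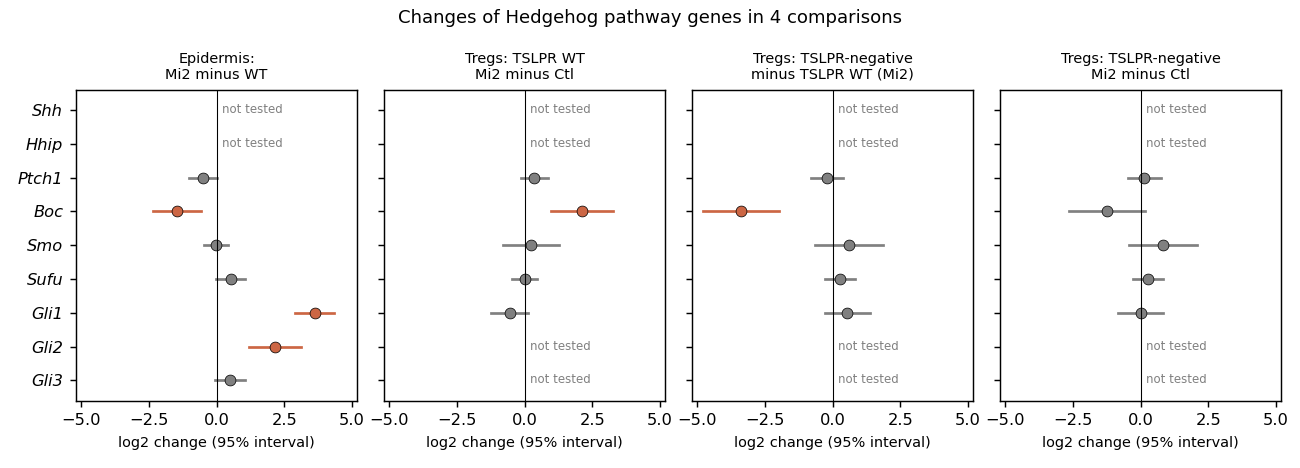
Log2 change of each Hedgehog gene in the epidermal comparison and the 3 Treg comparisons; points are limma estimates, lines are 95% intervals, orange marks an adjusted p under 0.05, and genes below the filter are marked as not tested. Gli1 at 3.62 and Gli2 at 2.16 lie to the right in epidermis, and Boc is orange in 3 panels, at -1.47, 2.13 and -3.38.

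Levels of different genes were compared only per kilobase of RefSeq transcript. In WT epidermis Smo had the highest level per kilobase, 239 normalized reads, followed by Boc at 75.3, Ptch1 at 56.5, Sufu at 42.7, Gli3 at 25.1, Gli2 at 5.40 and Gli1 at 3.99. The 2 WT libraries of each of these genes stayed clear of those of its neighbours in that order. In Mi2 epidermis the order of levels per kilobase was Smo at 233, Sufu at 61.6, Gli1 at 52.1, Ptch1 at 39.9, Gli3 at 35.8, Boc at 29.3 and Gli2 at 26.8. There Smo stood clear of the rest, Sufu and Gli1 overlapped and stood clear of those below, and Ptch1, Gli3, Boc and Gli2 overlapped one another in turn. The order depended on the length used: with merged GENCODE exons Ptch1 ranked 5 in WT and 7 in Mi2 epidermis. Gli1 then ranked 2 and Sufu 3 in Mi2 epidermis, the reverse of their order above, and genes below Ptch1 moved up.

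The balance among the 3 Gli genes moved with Gli1 and Gli2. Of their summed level per kilobase, Gli3 made up 72.5% and 73.0% in the WT libraries and 31.0% and 31.5% in the Mi2 libraries. The share of Gli1 was 11.3% and 11.9% in WT against 41.3% and 51.2% in Mi2 epidermis. Gli2 held 16.2% and 15.1% in WT against 27.7% and 17.3% in Mi2 epidermis. These shares compare transcripts within a library and so do not depend on the scaling between libraries. The ratio of Gli1 to Ptch1 per kilobase was 0.0711 and 0.0702 in WT against 1.52 and 1.12 in Mi2 epidermis; both genes are textbook targets, and only Gli1 was called. The size of that ratio depends on the lengths used: with merged GENCODE exons it was 0.172 and 0.170 in WT against 3.69 and 2.72 in Mi2 epidermis.

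Gli1 shares 62 exonic bases at its 3′ end with Arhgap9, a gene on the opposite strand known mainly from blood cells. In epidermis Arhgap9 was at 3.97 and 5.08 in WT and at 1.33 and 2.72 in Mi2 libraries, far below Gli1 in the Mi2 libraries. A second antisense gene, Gm47200, shares 265 exonic bases with Gli1 and has no row in the epidermal table; its part in the Gli1 value was not tested.

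Promoter windows were found for 6 of the 9 genes in RefSeq (GRCm38.p6): Ptch1, Hhip, Smo, Sufu, Gli2 and Gli3. The 250 bases before the start are shown for Gli2, which rose in Mi2 epidermis, and for Ptch1, the classical target that was not called. Capitals mark the GC box GGGCGG, the kind of site that Sp1 family factors read; the Gli2 window is chr1:119053620-119053869 and the Ptch1 window is chr13:63565736-63565985, both on the minus strand and printed 5′ to 3′.
Gli2: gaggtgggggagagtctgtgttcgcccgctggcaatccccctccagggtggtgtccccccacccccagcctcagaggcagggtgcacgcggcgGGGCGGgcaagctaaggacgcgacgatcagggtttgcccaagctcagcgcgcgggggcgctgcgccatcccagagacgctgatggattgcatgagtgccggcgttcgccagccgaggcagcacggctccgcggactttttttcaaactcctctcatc
Ptch1: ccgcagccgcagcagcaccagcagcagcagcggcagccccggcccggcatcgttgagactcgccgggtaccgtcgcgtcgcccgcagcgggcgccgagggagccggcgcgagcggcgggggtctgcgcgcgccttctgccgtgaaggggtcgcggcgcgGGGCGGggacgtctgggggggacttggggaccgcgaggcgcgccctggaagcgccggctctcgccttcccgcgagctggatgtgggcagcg
The GC box starts 157 bases before the Gli2 start and 91 bases before the Ptch1 start. Searched on both strands, GGGCGG occurred in 5 of the 6 windows, Smo being the exception, and in 32.7% of all 32851 windows of this length. The Gli binding letters TGGGTGGTC, found in 0.225% of all windows, and their shorter forms GGGTGGTC in 0.703% and GGTGGTC in 2.34%, occurred in none of the 6. This says only that those letters are not in these windows. GC content was 67.2% for Gli2 and 78.4% for Ptch1, against a median of 52.4% over all windows.

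Other genes of the pathway were taken from lists of ligand release, reception, intracellular relay, primary cilium and target genes. Of these 56 genes, 42 were tested in epidermis, of which 6 rose, 12 fell and 24 were not called. That is 42.9% called, against the 28.2% over all genes, and their median log2 change was -0.39 against -0.03.

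Genes of the other ligands and of ligand release gave no call among 2 tested. Dhh, a ligand of the same family as Shh, had no read in either WT library and 5 and 3 reads in the Mi2 libraries (6.63 and 4.09 normalized reads), below the filter and not tested. Ihh, the remaining ligand, was at 0 and 1.45 in WT and at 1.33 and 0 in Mi2 epidermis, also below the filter. With no filter on low values Dhh was called higher (limma, adjusted p 0.0324), a call that rests on those reads. Scube2, which helps release lipid-bearing ligand, was at 100.2 and 106 in WT and at 13.3 and 163 in Mi2 epidermis, with the Mi2 libraries on either side of WT (limma, adjusted p 0.422). Without the second Mi2 library Scube2 was called lower (log2 change -2.87, limma adjusted p 6.3e-03). Among 3 reception genes tested, 1 fell and none rose. Gas1, a co-receptor like Boc, was at 814 and 746 in WT and at 330.4 and 245 in Mi2 epidermis, a log2 change of -1.45 (limma, adjusted p 5.4e-03; 0.0506 without the first WT library). Cdon, the closest relative of Boc, was at 401 and 494 in WT and at 79.6 and 278 in Mi2 epidermis, which was not called (log2 change -1.57, limma adjusted p 0.0608). Gpc3, a proteoglycan that competes for ligand, was not called either (log2 change -1.52, limma adjusted p 0.0783). All 3 co-receptors measured, Boc, Gas1 and Cdon, were lower in both Mi2 libraries than in either WT library, with 2 of the 3 called. Over all genes tested 13.1% were called lower, and the share whose groups did not overlap is not given here.

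Of 16 intracellular relay genes tested, 3 rose and 4 fell, where 15.1% of all genes tested were called higher and 13.1% lower. Kif7, a kinesin that orders Gli proteins at the tip of the cilium, was at 14.9 and 28.3 in WT and at 169 and 104.9 in Mi2 epidermis (log2 change 2.63, limma adjusted p 6.3e-03). Prkacb, a catalytic subunit of protein kinase A, was at 156 and 159.7 in WT and at 337 and 362 in Mi2 epidermis (log2 change 1.14, limma adjusted p 8.9e-03). Evc, a ciliary partner of Smo, was at 188 and 177 in WT and at 17.2 and 53.1 in Mi2 epidermis (log2 change -2.54, limma adjusted p 0.012). Arrb2, a β-arrestin, was at 87.3 and 80.6 in WT and at 14.6 and 15.0 in Mi2 epidermis (log2 change -2.43, limma adjusted p 4.4e-03). The count of 7 called relay genes fell to 1 without the first WT library and to 3 without the second.

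Of 12 cilium genes tested, 5 fell, 1 rose and 6 were not called, where 13.1% of all genes tested were called lower and 15.1% higher. Their median log2 change was -0.99, against -0.03 over all genes tested, and the count of 6 called fell to 1 without either WT library and was 4 and 9 without the first or second Mi2 library. Ift172, part of the intraflagellar transport complex, was at 146 and 186 in WT and at 14.6 and 19.1 in Mi2 epidermis. It fell by 3.23 on the log2 scale (SE 0.326, limma adjusted p 1.5e-03), with no overlap between the groups. Ift52, another transport subunit, fell by 1.67, Kif3a, a motor subunit of the same transport, fell by 1.55, and Arl13b, a ciliary GTPase, fell by 1.08 (limma adjusted p 0.0195, 0.0162 and 0.0204). The 1 cilium gene that rose was Tulp3, named here after its value was seen, at 157 and 159.7 in WT and at 275 and 313 in Mi2 epidermis (log2 change 0.89, limma adjusted p 0.0219). That rise was called under 11 of the 15 alternatives. It was not called when mitochondrial genes were left out of the scaling (limma, adjusted p 0.0698), among others.

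Among 9 target genes tested, 2 rose and 2 fell, against the same 15.1% and 13.1% over all genes tested. Krt17, a keratin of the outer root sheath and of stressed epidermis, was at 1957 and 2143 in WT and at 13321 and 13623 in Mi2 epidermis (log2 change 2.72, limma adjusted p 8.4e-04). Foxm1, a driver of the cell cycle, was at 127 and 280.2 in WT and at 1197 and 812 in Mi2 epidermis (log2 change 2.38, limma adjusted p 6.5e-03). Ccnd2, a D-type cyclin, went the other way, from 8234 and 8138 in WT down to 1482 and 2708 in the Mi2 libraries (log2 change -2.03, limma adjusted p 5.5e-03). Bcl2, an inhibitor of cell death, was at 121 and 176 in WT and at 69.0 and 77.6 in Mi2 epidermis (log2 change -0.99, limma adjusted p 0.0405). That call was lost when any 1 library was left out, with adjusted p from 0.0599 to 0.334. So the target list held genes that rose and genes that fell, and its median log2 change was 0.04.

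**Figure D3:**
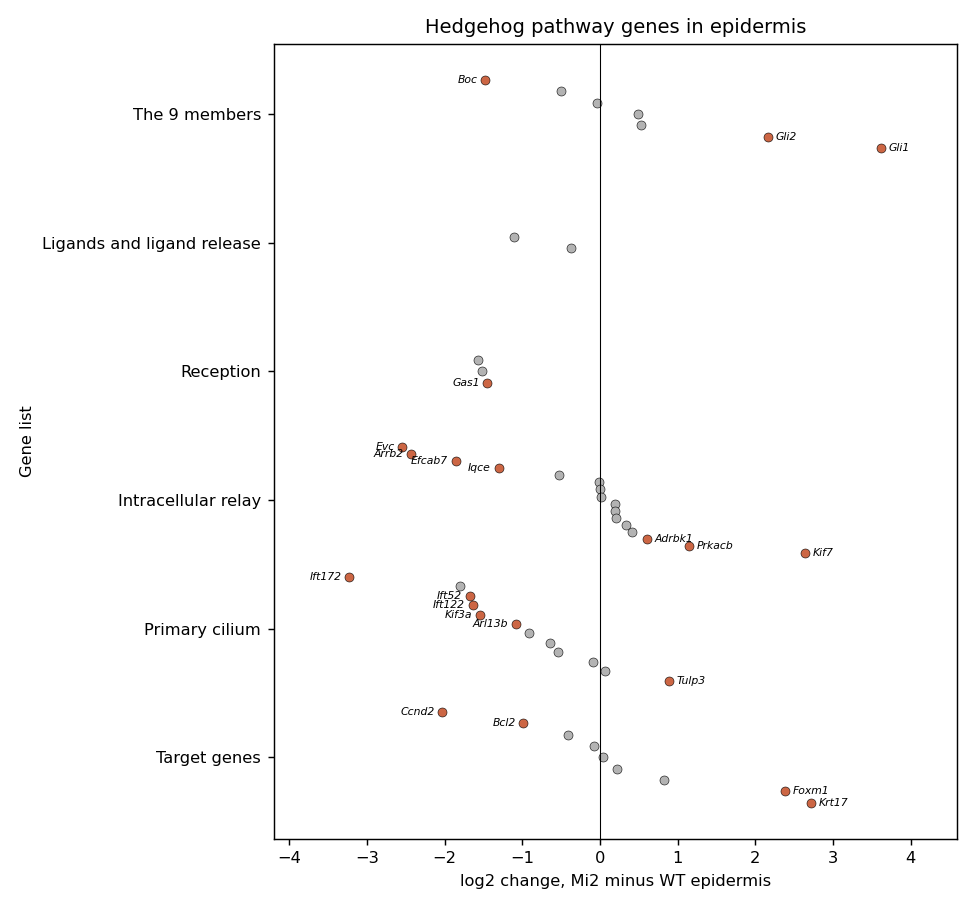
Log2 change in epidermis (Mi2 minus WT) of each tested gene of the 9 members and of 5 further lists; each point is 1 gene, orange points are called at an adjusted p under 0.05 and carry their names. In the cilium row 5 of the 6 orange points lie below 0, and in the relay and target rows they lie on both sides.

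Genes whose pattern over the 4 epidermal libraries was most like that of a called member were found by the root mean square difference of log2 values after subtracting the WT mean. For Gli1 they were Arhgef17, Casc4 and Aqp9, with differences of 0.0678, 0.0821 and 0.115. Arhgef17 was at 53.6 and 53.7 in WT and at 662 and 621 in Mi2 epidermis. For Gli2 they were Tead4, Kif26a and Rbp2, with differences of 0.0260, 0.0630 and 0.0716, and Tead4 was at 37.7 and 36.3 in WT and at 263 and 112 in Mi2 epidermis. For Boc they were Fam164a, Clk2 and Prpf40b, with differences of 0.0300, 0.0405 and 0.0439. With 4 libraries such likeness is a description only.

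Markers of other cell types moved with the Mi2 group, and their part in the values of Gli1, Gli2, Boc and the other pathway genes was not tested. Over all genes tested, 15.1% were called higher and 13.1% lower. Dermal cells carry Gli1 and Gli2 in skin. The summed level of 12 fibroblast markers was 1139 and 696 in WT against 5255 and 2903 in Mi2 epidermis, with 4 of 8 tested genes higher and none lower. Sparc, at 595 and 400.0 in WT and at 2944 and 1711 in Mi2 epidermis, and Thy1, at 265 and 151 in WT and at 1631 and 812 in Mi2 epidermis, held most of that sum. The other called genes of that list were Col5a1, a fibrillar collagen chain, at 12.9 and 2.90 in WT and at 370.2 and 268 in Mi2 epidermis (log2 change 5.42, limma adjusted p 1.9e-03), and Fbln1, a matrix glycoprotein, at 6.95 and 23.2 in WT and at 82.3 and 58.6 in Mi2 epidermis (log2 change 2.34, limma adjusted p 0.0242). The genes tested and not called were Vim, Col1a1, Col1a2 and Col3a1. Among them Col1a1 was at 72.4 and 12.3 in WT and at 18.6 and 4.09 in Mi2 epidermis. Dcn, Lum, Pdgfra and Pdgfrb were below the filter, at 0 to 6.95 in the 4 libraries. Of 7 dermal papilla markers 1 was tested, Rspo3, at 113 and 112 in WT and at 0 in both Mi2 libraries; Sox2 was at 0 in all 4 libraries and the sum was 13.6 to 29.2 in Mi2 against 127 to 161 in WT epidermis. Of 6 Merkel cell markers Krt8 and Krt18 rose from 0 in both WT libraries to 308 and 25.9 and to 389 and 50.4 in Mi2 epidermis, while Atoh1, Isl1 and Sox2, which define that cell, were at 0 throughout. Krt20, the remaining marker, was at 0.726 in the second WT library and at 0 in the others.

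Hair follicle markers moved in both directions, where 15.1% of all genes tested were called higher and 13.1% lower. Of 11 outer root sheath and bulge genes tested, 4 rose and 2 fell, with a median log2 change of 0.22. Their list's sum went from 53462 and 45311 to 19163 and 25297. Krt15 held most of the WT sum, at 49093 and 40508 in WT and at 4202 and 8781 in Mi2 epidermis. Krt17, the next highest by mean, went the other way, from 1957 and 2143 to 13321 and 13623. Of 8 hair matrix and inner root sheath genes tested, 3 rose and 3 fell, with a median log2 change of 0.79. The sums of that list were 7379 and 8141 in WT against 3493 and 4185 in Mi2 epidermis. Gata3 held most of them, at 6873 and 7604 in WT and at 2185 and 3186 in Mi2 epidermis. Sebocyte genes rose in 3 of 5 tested, with sums of 3200.4 and 4097 in WT against 6772 and 7288 in Mi2 epidermis. Scd1 and Fasn held most of these sums, and Pparg, of the same list, was below the filter at 0.726 to 5.45. Sums were 120 to 264 for melanocyte genes (0 higher and 1 lower of 2 tested), 248 to 732 for leukocyte genes (1 higher of 4 tested), 8.93 to 218 for Schwann cell and neuron genes (1 higher of 2 tested) and 1.98 to 9.29 for endothelial genes (none tested).

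In Tregs the set looked different: Sufu and Ptch1 were the abundant members, Smo was low, and Gli2 and Gli3 had no reads. Shh, Hhip, Gli2 and Gli3 had 0 reads in all 5 Treg libraries, which allows up to 2.41 to 3.55 normalized reads per library. Of the 9 genes 5 were tested in each of the 3 Treg comparisons, which share libraries and so are not independent. Boc was called higher and no gene lower in TSLPR WT Mi2 against Ctl Tregs, where 27.7% of all 12206 genes tested were called, 14.7% as higher and 13.0% as lower. Boc was called lower and no gene higher in TSLPR-negative against TSLPR WT Mi2 Tregs, where 0.942% of all genes were called, 0.737% as higher and 0.205% as lower. Of the 5, none was called in TSLPR-negative Mi2 against Ctl Tregs by limma, none at an unadjusted p under 0.05 and none by edgeR or DESeq2, where limma called 3.15% of all genes, 2.63% as higher and 0.516% as lower. The TSLPR-negative group had 1 library, which the fit assumes to vary like the other groups.

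**Figure D4:**
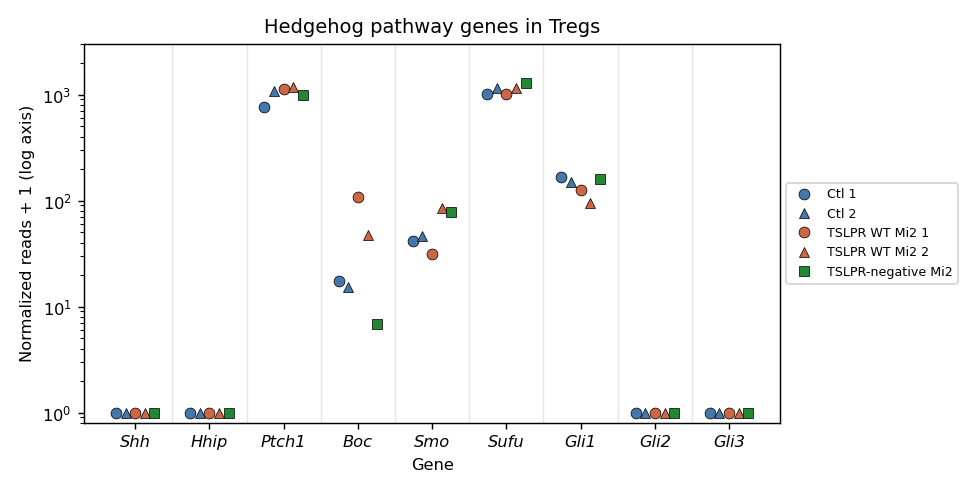
Normalized reads plus 1 (log axis) of the 9 Hedgehog genes in each Treg library; blue is Ctl, orange is TSLPR WT Mi2 and the green square is the single TSLPR-negative Mi2 library. Boc runs from 5.91 in the TSLPR-negative library to 108 in the first TSLPR WT library, while Sufu stays between 1001 and 1294.

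Ptch1 was at 767 and 1068 in the Ctl libraries, 1133 and 1188 in those of TSLPR WT Mi2 Tregs and 998 in the TSLPR-negative one. The log2 change of TSLPR WT Mi2 against Ctl was 0.36 (95% interval -0.13 to 0.85, limma adjusted p 0.265), though the 2 groups did not overlap. Sufu was at 1001 and 1149 in the Ctl libraries, 1013 and 1147 in those of TSLPR WT Mi2 Tregs and 1294 in the TSLPR-negative one. Its log2 change of TSLPR WT Mi2 against Ctl was 0.01 (95% interval -0.45 to 0.46, limma adjusted p 0.983). Smo was at 40.2 and 45.7 in the Ctl libraries, 30.0 and 83.6 in those of TSLPR WT Mi2 Tregs and 76.8 in the TSLPR-negative one. The TSLPR WT libraries lay on both sides of the others, and no Smo comparison was called (limma, adjusted p 0.64 to 0.782).

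Boc was at 16.6 and 14.4 in the Ctl libraries, 108 and 46.8 in those of TSLPR WT Mi2 Tregs and 5.91 in the TSLPR-negative one, from 14, 18, 122, 47 and 7 reads. Both TSLPR WT libraries were above the other 3, and the TSLPR-negative library was the lowest. Boc rose by 2.13 in TSLPR WT Mi2 against Ctl Tregs on the log2 scale (SE 0.535, limma adjusted p 8.6e-03), a ratio of means of 4.98. Against TSLPR WT Mi2 Tregs the TSLPR-negative library was lower by a log2 change of -3.38 (SE 0.655, limma adjusted p 0.0276). Against Ctl Tregs it was not called (log2 change -1.25, 95% interval -2.65 to 0.15, limma adjusted p 0.455). Without the first TSLPR WT library the 2 called changes were 1.54 and -2.79 with adjusted p of 0.111 and 0.0572, and neither was called. With no filter on low values the adjusted p were 0.105 and 0.452, and without an intensity trend the second was 0.151. Boc was thus called lower in Mi2 epidermis and higher in TSLPR WT Mi2 Tregs; the tables were normalized separately and this difference was not tested.

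Markers of B cells moved the opposite way to Boc between Ctl and TSLPR WT Mi2 Tregs. They moved the same way as Bcl2, Ift172 and Prkacb, which were called, and as Gli1, which was not. All 5 B cell markers were called lower, where 14.7% of all genes tested were called higher and 13.0% lower. B cell sums were 4116 and 1913 in Ctl, 778 and 958 in TSLPR WT and 896 in TSLPR-negative libraries. The highest markers were Cd79b, at 1237 and 727 in Ctl and 505 to 586 in the others, and Ms4a1, at 1172 and 317 in Ctl and 75.8 to 102.5 in the others. In the TSLPR-negative library the B cell sum lay between those of the TSLPR WT libraries. There Gli1 was at 158, Bcl2 at 6367, Ift172 at 242 and Prkacb at 4027, each above both TSLPR WT libraries. The part of B cells in the Treg values was not tested. Sums were 118 to 317 for myeloid markers (none of 5 called), 40.1 to 90.3 for lymph node stroma (1 higher of 1 tested, Col1a1) and 19.4 to 48.8 for keratinocyte markers (none of 1 called), with Krt5 and Krt14 at 0 in all 5 libraries. The other stroma markers were below the filter. Among them Col1a2 was at 16.6 and 7.22 in Ctl and at 1.76 and 5.97 in TSLPR WT libraries. Ccl19 and Ccl21a were at 0 in all 5 libraries, and Pdpn, Col3a1, Pdgfrb and Lyve1 were at 0 to 4.98.

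Gli1 was at 167 and 150.0 in the Ctl libraries, 123 and 94.6 in those of TSLPR WT Mi2 Tregs and 158 in the TSLPR-negative one. None of its changes was called; that of TSLPR WT Mi2 against Ctl was -0.55 (95% interval -1.23 to 0.14, limma adjusted p 0.224). Reads of Gli1 and of Arhgap9 cannot be told apart where they overlap, because the Treg counting names no strand. In the deposited mm9 coordinates Gli1 lies at chr10:126766938-126778635 on the minus strand and Arhgap9 at chr10:126759020-126766999 on the plus strand. Their 3′ ends share 62 bases, 2.63% of the counted Arhgap9 transcript of 2354 bases. Arhgap9 was at 5646 and 6957 in the Ctl libraries, 4956 and 4591 in those of TSLPR WT Mi2 Tregs and 6591 in the TSLPR-negative one. The Gli1 value was 2.96%, 2.16%, 2.49%, 2.06% and 2.40% of the Arhgap9 value in these libraries. A Treg value of Gli1 is therefore given here only as the count over its exons, which includes any read of Arhgap9 that falls on the shared bases.

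**Figure D5:**
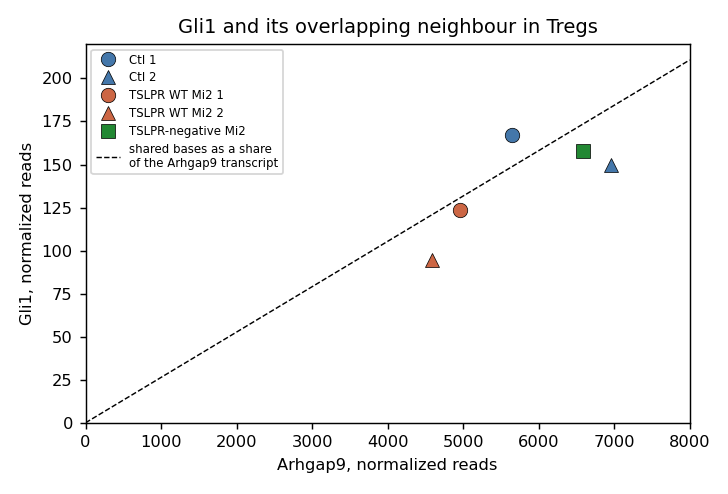
Gli1 against Arhgap9, both in normalized reads, in the 5 Treg libraries; the dashed line marks 2.63% of the Arhgap9 value, the shared bases as a share of the Arhgap9 transcript. The 5 libraries lie near the line, between 2.06% and 2.96%.

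Gli1 was left out of the order of levels in Tregs, since its count cannot be told apart from Arhgap9 reads on the shared bases. Per kilobase the order of the other members in Ctl Tregs was Sufu at 238 normalized reads, Ptch1 at 214, Smo at 10.8 and Boc at 3.52. Sufu and Ptch1 overlapped there, and the others stood apart. In TSLPR WT Mi2 Tregs the order was Ptch1 at 271, Sufu at 239, Boc at 17.5 and Smo at 14.3, with Boc and Smo overlapping. With merged GENCODE exons Sufu ranked 1 and Ptch1 ranked 2 in TSLPR WT Mi2 Tregs. The TSLPR-negative library had Sufu at 287, Ptch1 at 233, Smo at 19.4 and Boc at 1.34. The ratio of Ptch1 to Smo per kilobase was 12.0 to 35.0 in the Treg libraries and 0.145 to 0.237 in the epidermal libraries, and with merged GENCODE exons it was 5.15 to 15.0 and 0.0621 to 0.102. This ratio is taken within a library, but the tables came from different counting, so it was not tested between them.

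Of the other 56 pathway genes, 32 were tested in Tregs. In TSLPR WT Mi2 against Ctl 1 rose and 3 fell, 12.5% called against 27.7% over all genes. Foxm1 rose from 602 and 389 to 2971 and 2892 (log2 change 2.60, limma adjusted p 8.3e-06), as it did in Mi2 epidermis. Bcl2 fell from 10038 and 6422 to 995 and 1923 (log2 change -2.54, limma adjusted p 2.6e-05). Ift172 fell from 257 and 288 to 66.2 and 101.5 (log2 change -1.72, limma adjusted p 1.1e-03), and Prkacb fell from 5441 and 4563 to 3417 and 3190.4 (log2 change -0.59, limma adjusted p 0.0408). Ift172 was called lower in both tissues, whereas Prkacb was called higher in Mi2 epidermis. The Prkacb call held under 12 of 17 alternatives in Tregs and 13 of 15 in epidermis. For Ift172 the call held under 16 of 17 and 15 of 15. In the TSLPR-negative library Bcl2 was at 6367, higher than in TSLPR WT Mi2 Tregs (log2 change 2.20, limma adjusted p 0.0129), and Foxm1 was at 1850.4, higher than in Ctl Tregs (log2 change 1.93, limma adjusted p 4.4e-03). These were the only calls among the 32 genes in those 2 comparisons. Cdon, the relative of Boc, was at 1219 to 1350 in all 5 Treg libraries and was called in none of the 3 comparisons.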

How the data were processed

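RNA sequencing of 9 mouse libraries was used. Per the submitters' processing notes the tools were bcl2fastq 1.8.3, STAR and DESeq2 and the builds mm9 and mm10. Per the file headers the Treg table was made with HOMER from exons of RefSeq transcripts on mm9, with no strand setting. For the epidermal table the sources used here do not name the counter, the build or the strand setting, nor which library kit (NEXTflex or stranded TruSeq) each sample had. In both tables the deposited signal is whole reads scaled by the authors with 1 factor for each library. All values (100%) were whole reads within 0.05 reads, so reads were recovered.

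The 9 genes were matched by symbol, in the Treg table by the transcript with the highest mean. A single further pathway gene is not reported here and was left out of the lists. The members, lists and comparisons were chosen with earlier results of these data known. Epidermis (4 libraries) and Tregs (5 libraries, 1 fit) were tested apart with limma 3.58.1 (R 4.3.3) on log2(value + 1), keeping genes with a mean of at least 10, with an intensity trend. The design named limma for normalized values, which the tables hold. Fold changes on this scale understate those of low genes. On the recovered reads edgeR 4.0.16 called 4107 genes in epidermis and 3390, 120 and 407 in the Treg comparisons, in the order given in the text. The fit was tested on simulated data. Alternatives were other pseudocounts (0.5 and 5), filters (none, and a mean of 50), tests (no trend, edgeR, DESeq2 1.42.0), scalings, summed transcripts, left-out libraries and a replicate block. The named genes were the 9 members, up to 4 genes of each pathway list with the smallest p in epidermis, the 2 highest genes of a marker list, and the 3 genes most like each called epidermal member. Further genes of marker lists, Dhh and Ihh were named after their values were seen. Replicates correlated at 0.942 to 0.978 across genes, and none was a repeat of another. Promoter sequences are from RefSeq; figures were drawn with matplotlib 3.10.9.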

Additional observations from a re-analysis of the deposited data

Results flagged for a closer look

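Boc was lower in the TSLPR-negative library than in the TSLPR WT Mi2 libraries. The comparison sets 1 library with 7 reads against 2, and the fit assumes that the single library varies like the other groups. Boc's log2 difference was -3.38 (limma, adjusted p 0.0276), with 1 TSLPR-negative library at 5.91 normalized reads below both TSLPR WT libraries at 108 and 46.8. Over the alternatives run the difference was -3.97 to -2.79, and it was called in 10 of 13. It was not called without the first TSLPR WT library (-2.79, adjusted p 0.0572), with no filter on low values (adjusted p 0.452) or without an intensity trend (adjusted p 0.151).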

How the results depend on the processing

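Gli1 and Gli2 kept their direction and call in epidermis under all 15 alternatives, and Boc kept its direction in the epidermal comparison and in the 3 Treg comparisons. Leaving out 1 library at a time gave 1113 to 5815 called genes in epidermis, the lowest count without the first WT library, and 2504 to 3361 in TSLPR WT Mi2 against Ctl Tregs.

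Direction turned only for changes that were not called. Leaving out 1 library at a time, Gli1 and Ptch1 in TSLPR-negative Mi2 against Ctl ranged from -0.079 to 0.073 and from -0.098 to 0.38. Smo ranged from -0.14 to 0.070 in epidermis, from -0.50 to 0.95 in TSLPR WT Mi2 against Ctl and from -0.12 to 1.33 in TSLPR-negative against TSLPR WT. Sufu in TSLPR WT Mi2 against Ctl ranged from -0.092 to 0.11 and was -0.0019 with DESeq2 and -0.0075 when scaled without the 50 most abundant genes. The cause was not tested.

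With no filter on low values limma called 0 genes in each Treg comparison, against 5043, 1741 and 1942 at an unadjusted p under 0.05 and the counts of edgeR above. Without a trend it called 3 genes in TSLPR-negative against TSLPR WT and 1 against Ctl, and DESeq2 called 233, 3182 and 449 in TSLPR-negative against TSLPR WT, TSLPR WT against Ctl and TSLPR-negative against Ctl. Leave-one-out counts were 159 to 453 in TSLPR-negative against TSLPR WT and 372 to 687 in TSLPR-negative against Ctl. The number of Hedgehog genes called in Tregs went from 1 to 0 with no filter and with a filter at a mean of 50, which removes Boc, in both comparisons with a call; without a trend in TSLPR-negative against TSLPR WT; and, over left-out libraries, ranged from 0 to 1.

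Scaling without mitochondrial genes turned the epidermal split from 2185 higher and 1900 lower to 1531 higher and 2743 lower and moved the median log2 change from -0.03 to -0.26 (-0.16 without the 50 most abundant genes, which gave 1738 higher and 2099 lower). No call of the 9 genes changed with it. Replicate numbers pair nothing in the labels; same-numbered libraries deviated with a correlation of 0.123 in epidermis and 0.0917 in Tregs. With the replicate block 5170 genes were called in epidermis and 4361 in TSLPR WT Mi2 against Ctl, and no call of the 9 genes changed; the 4 libraries alone with no block, added after seeing the data, gave 3361. Depth limits Boc in Tregs, at 7 to 122 reads, and Gli1 in WT epidermis, at 14 and 21 reads.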
